A study of Macaca mulatta with 2 samples.

Results

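The genes examined here encode initiating components of the classical and alternative complement pathways: C1QA, C1QB and C1QC, for the A, B and C chains of C1q, CFB, for factor B, and CFD, for factor D. They are 5 of the 26533 genes and transgenes in the reference. They were chosen by their unique molecular identifier (UMI) counts per 10000 across the layers of the same 2 sections, so the differences between layers are given below as a description, without a test. C1QB (ENSMMUG00000058486), C1QC (ENSMMUG00000020756) and CFD (ENSMMUG00000028947) carried their names in the feature list. C1QA (ENSMMUG00000063725) and CFB (ENSMMUG00000000729) were listed by gene ID alone and were matched through a gene name table for those IDs. All 5 genes had UMIs in the tissue of both animals.

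C1q is the recognition molecule of the classical pathway. It binds antibody in immune complexes and other surface ligands, and then activates the serine proteases C1r and C1s. In the alternative pathway, factor B bound to C3b is cut by factor D, and the fragment Bb that remains forms the C3 convertase by which the pathway amplifies C3b deposition. In most tissues C1q comes chiefly from macrophages and, in retina and brain, microglia. Factor D was first known as adipsin, a product of fat cells, and factor B is made by liver and is inducible in fibroblasts, epithelia and macrophages. In the eye, alternative pathway control at the RPE, Bruch's membrane and choroid has been studied above all in age-related macular degeneration.

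Each section came from an area outside the injected blebs of the right eye of a wild-type male rhesus macaque: NHP1, aged 5 years, and NHP2, aged 6 years. Both eyes of each animal had a pars plana vitrectomy and subretinal AAV, so "uninjected" describes the position of the punch and not an untreated eye. NHP1 received AAV2-CAG-hRPE65, with a ubiquitous promoter, and NHP2 received AAV8-GRK1-hRPGR(co) and AAV8-GRK1-mScarlet, with a photoreceptor promoter, in 2 separate blebs. All eyes were given 40 mg subtenon triamcinolone with topical dexamethasone, neomycin and polymyxin B, the right eyes were given no adalimumab, and tissue was harvested 12 weeks after injection. A 4 mm punch of retina, choroid and sclera was cut at 10 µm, and polyadenylated RNA was captured in 55 µm spots. A spot of this size can hold several cells of different types. There was 1 section per animal, spots are not replicates, and animal, vector and section cannot be told apart, so no p-value is given. The intervals in parentheses are exact 95% intervals that cover counting error only.

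NHP1 had 534 tissue spots with 1484784 UMIs and a median of 1473.5 per spot, and NHP2 had 470 with 805726 UMIs and a median of 370.5. The spots were clustered without complement genes, and a region was called by its first leading gene and placed in a class by its marker lists. NHP1 held 316 neural retina, 16 RPE and 202 outer coat (choroid and sclera) spots, and NHP2 held 68, 66 and 251, with 85 spots unnamed. Outer coat regions were further divided, after their values were seen, into choroid-led and sclera-led by which markers were more frequent among their 10 leading genes. The choroid-led regions were led by PAX3 in NHP1 (75 spots) and ACTA2 in NHP2 (43 spots). The sclera-led regions were led by S100A8 and CHAD in NHP1 (127 spots) and by CLEC3B, MBP and DCN in NHP2 (208 spots). This division is coarse. The PAX3 region raised 11 of 16 choroid, 11 of 18 sclera and 11 of 12 RPE markers. The ACTA2 region raised 9, 11 and 8 of these. The sclera-led MBP region raised 8 of 16 choroid and 16 of 18 sclera markers. Among its 10 leading genes, the PAX3 region had 1 choroid marker and 0 sclera markers. Of the 2 neural retina regions of NHP2, the region called by ENSMMUG00000029122 also raised 11 of 12 RPE markers.

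The 3 C1q genes lie side by side on the minus strand of chromosome 1 of the RefSeq Mmul_10 annotation, C1QB at 202117786 to 202126077, C1QC at 202131138 to 202135635 and C1QA at 202139634 to 202142742. The gaps between them are 5060 and 3998 bases. CFB lies on the minus strand of chromosome 4 at 137543938 to 137549958, and CFD on the plus strand of chromosome 19 at 628305 to 631825. C2, which encodes the classical pathway relative of factor B, ends 380 bases upstream of CFB on the same strand. No row for C2 was found by name, and whether reads from C2 were counted under CFB was not checked. The 250 bases upstream of the gene start are shown for 2 neighbouring C1q genes and for CFB, because these genes were at different levels in the same outer coat regions. They are written 5′ to 3′ on the gene's strand, with capitals for matches to any of 4 short motifs. The window is chr1:202126078-202126327 for C1QB, chr1:202135636-202135885 for C1QC and chr4:137549959-137550208 for CFB.
C1QB: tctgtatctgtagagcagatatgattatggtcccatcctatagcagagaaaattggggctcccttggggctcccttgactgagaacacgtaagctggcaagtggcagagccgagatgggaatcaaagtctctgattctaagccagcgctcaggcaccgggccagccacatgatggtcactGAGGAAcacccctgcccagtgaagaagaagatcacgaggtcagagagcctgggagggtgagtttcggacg
C1QC: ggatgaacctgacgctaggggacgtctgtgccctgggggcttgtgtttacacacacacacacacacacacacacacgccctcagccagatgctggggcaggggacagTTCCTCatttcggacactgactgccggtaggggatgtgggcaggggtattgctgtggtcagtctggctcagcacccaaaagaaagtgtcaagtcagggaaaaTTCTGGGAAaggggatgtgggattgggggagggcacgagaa
CFB: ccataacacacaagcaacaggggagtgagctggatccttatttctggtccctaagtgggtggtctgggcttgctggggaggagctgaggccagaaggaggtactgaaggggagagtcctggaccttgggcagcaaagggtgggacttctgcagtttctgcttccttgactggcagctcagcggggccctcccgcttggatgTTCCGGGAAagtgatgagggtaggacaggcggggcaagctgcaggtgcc

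The motifs searched on both strands were the GAS core TTCNNNGAA bound by STAT dimers, the ISRE core GAAANNGAA of interferon-stimulated genes, the PU.1 core GAGGAA of myeloid genes and the C/EBP core TTGCNNAA. The GAS core matched once in CFB, as TTCCGGGAA starting 49 bases before the gene start, and once in C1QC, as TTCTGGGAA starting 41 bases before it. It occurs in 5.98% of the 20787 windows of this length. The PU.1 core matched once each in C1QB, C1QC and CFD, and it occurs in 21.8% of all windows. The C/EBP core matched in C1QA alone among the 5 genes, against 8.05% of all windows, and the ISRE core, held by 6.87% of all windows, matched in none of them. A match is a run of letters and was not shown to be a binding site, and gene starts are those of the RefSeq models.

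Over all tissue spots, summed C1Q gave 237 UMIs in NHP1 and 201 in NHP2. These were 1.596 UMIs per 10000 (1.40 to 1.81) and 2.49 (2.16 to 2.86). At least 1 C1Q UMI was found in 26.6% (22.9 to 30.6) of NHP1 tissue spots and in 23.8% (20.05 to 27.95) of NHP2 tissue spots, and no spot held more than 10. CFB gave 96 UMIs in NHP1, or 0.647 per 10000 (0.524 to 0.790), and 155 in NHP2, or 1.92 per 10000 (1.63 to 2.25). CFD gave 113 UMIs in NHP1, or 0.761 per 10000 (0.627 to 0.915), and 18 in NHP2, or 0.223 per 10000 (0.132 to 0.353). CFB UMIs per CFD UMI were 0.850 (0.640 to 1.13) in NHP1, an interval that spans 1, and 8.61 (5.27 to 14.9) in NHP2. CFB-positive spots made up 13.1% of tissue spots in NHP1 and 19.4% in NHP2, and CFD-positive spots 13.1% and 3.40%.

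Capture depth differed between positive and other spots, and it did so in opposite directions for CFB. In NHP1 the CFB-positive spots had a median of 736 UMIs against 1608.5 in the other spots, whereas in NHP2 they had 921 against 271. C1Q-positive spots were deeper than the other spots in both animals, at 2026.5 against 1247 and 1239.5 against 259.5. Some signal also lay outside the tissue. NHP1 had 0.0194 C1Q, 0.00770 CFB and 0.0140 CFD UMIs per off-tissue spot, and NHP2 had 0.00273, 0.00199 and 0.000497. Relative to all off-tissue UMIs these were 1.59, 0.631 and 1.15 per 10000 in NHP1, close to the tissue levels of C1Q and CFB there and above that of CFD (0.875 to 1.48 against 0.627 to 0.915). In NHP2 they were 1.43 (0.714 to 2.56), 1.04 (0.449 to 2.05) and 0.260 (0.0315 to 0.939), from 11, 8 and 2 UMIs. The C1Q and CFB values lay below the tissue levels, but their intervals overlapped those of the tissue (2.16 to 2.86 and 1.63 to 2.25). The CFD value was close to its tissue level.

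**Figure D1:**
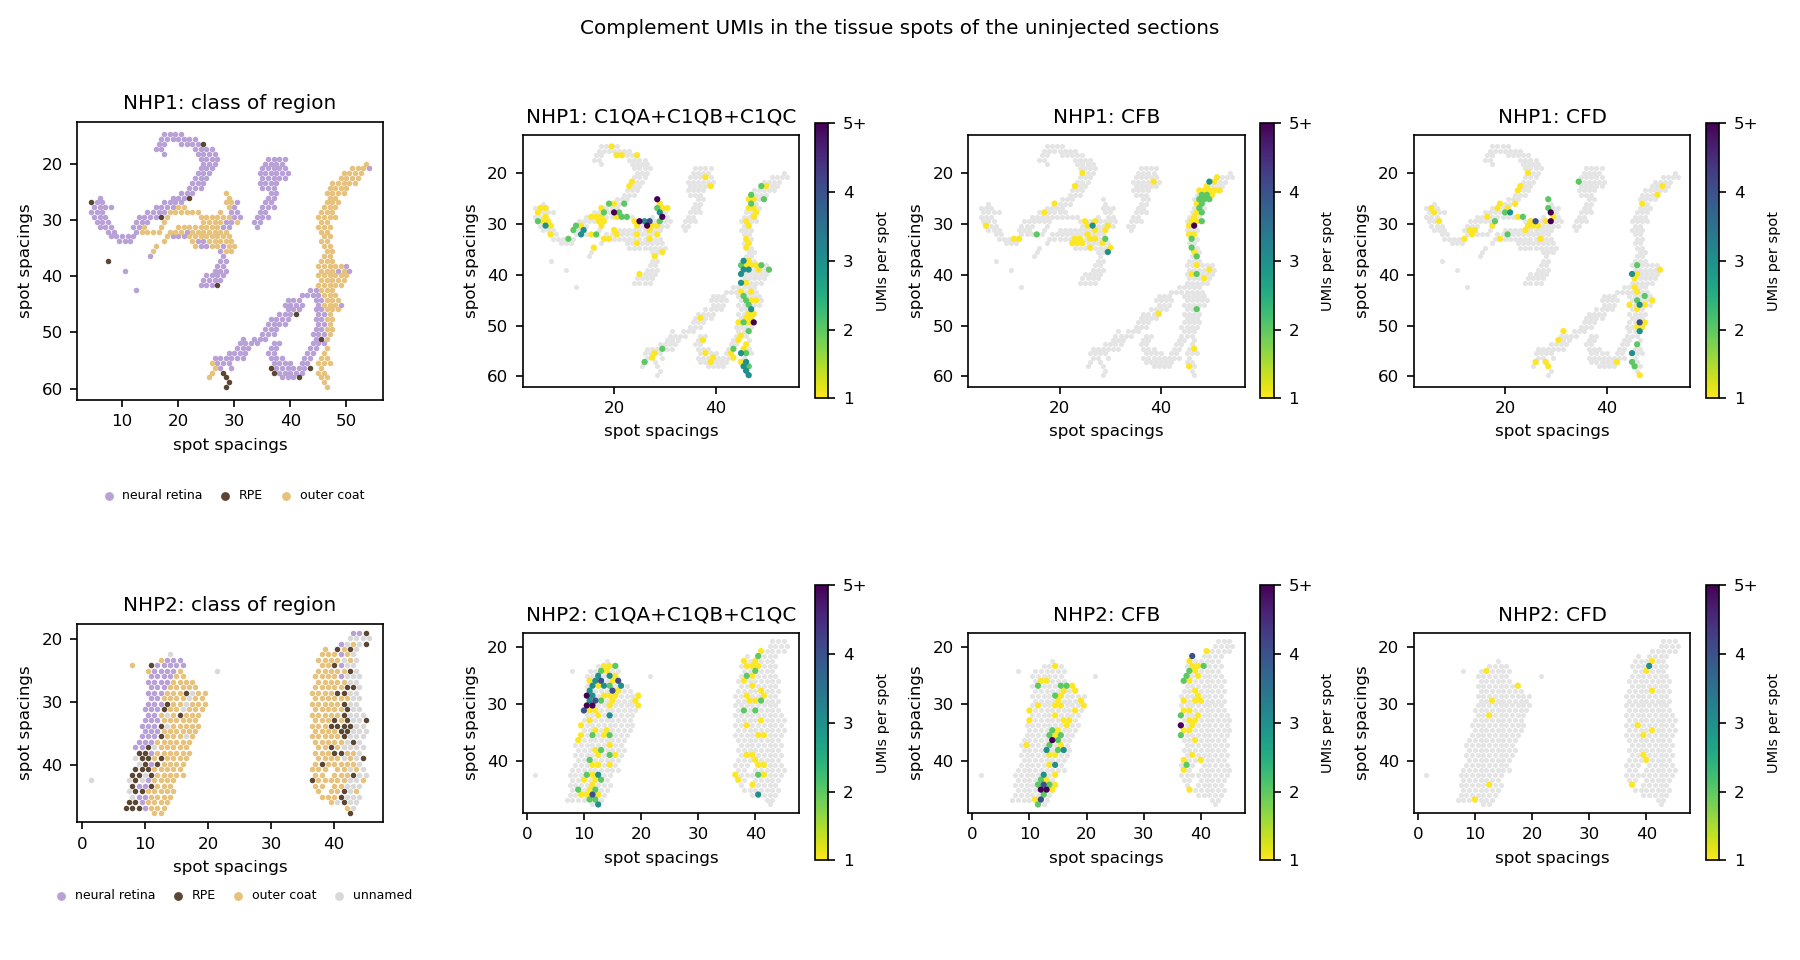
Tissue spots of NHP1 (top row) and NHP2 (bottom row), with both axes in spot spacings. The left panels colour each spot by the class of its region, and the other panels give the UMIs per spot of summed C1Q, CFB and CFD, where grey spots have 0 and the colour scale stops at 5 or more; no spot held more than 10 UMIs of any of them, and CFD appeared in 70 spots of NHP1 and 16 of NHP2.

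C1Q UMIs were more frequent in the outer coat than in the neural retina of both animals when scaled to all UMIs. In NHP1 summed C1Q was 0.579 UMIs per 10000 (0.452 to 0.730) in the neural retina and 6.78 (5.77 to 7.91) in the outer coat, a ratio of 11.7 (8.81 to 15.7). In NHP2 it was 1.46 (1.17 to 1.79) and 5.65 (4.60 to 6.86), a ratio of 3.88 (2.89 to 5.22). The smaller ratio of NHP2 went with a higher neural retina level, 2.52 times that of NHP1 (1.82 to 3.49), whereas the outer coat levels had a ratio of 0.833 (0.643 to 1.07). The 16 RPE spots of NHP1 held 5 C1Q UMIs and the 66 of NHP2 held 8, or 2.48 and 5.96 per 10000, too few to place RPE between the other layers.

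The direction of the C1Q difference depended on the scale in NHP2. Per spot, C1Q was still higher in the outer coat of NHP1, with a ratio of 3.55 (2.67 to 4.76), but it was lower in the outer coat of NHP2, with a ratio of 0.307 (0.229 to 0.414). Neural retina spots were deep in NHP2, where the ACTC1 region had a median of 8098.5 UMIs per spot and the MBP region of the outer coat 1146. That ACTC1 region raised 21 of 27 inner retina markers and alone held 64 C1Q UMIs, 31.8% of those in the section, at 1.495 per 10000 (1.15 to 1.91). Fewer cells of a type and less RNA per cell cannot be told apart in such spots.

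The 3 chains had similar proportions in the outer coat of both animals. There C1QA made up 37.3% of C1Q UMIs in NHP1 and 36.6% in NHP2, C1QB 42.9% and 42.6%, and C1QC 19.9% and 20.8%. In the neural retina the shares were 36.6%, 46.5% and 16.9% in NHP1 and 40.4%, 36.0% and 23.6% in NHP2. The most frequent chain thus differed there, though the intervals of each chain overlapped. In NHP1 C1QA was at 51.3% (34.8 to 67.6) in sclera-led and 32.8% (24.6 to 41.9) in choroid-led regions. The C1QA level was 0.212 per 10000 in the neural retina and 2.53 in the outer coat of NHP1, and 0.589 and 2.07 in NHP2. C1QB was at 0.269 and 2.91 in NHP1 and at 0.523 and 2.40 in NHP2, and C1QC at 0.0978 and 1.35 and at 0.343 and 1.17. The outer coat over neural retina ratio was thus 11.9, 10.8 and 13.8 for C1QA, C1QB and C1QC in NHP1 and 3.51, 4.59 and 3.42 in NHP2. Shares of UMIs from different genes are not molar shares, since capture differs between transcripts.

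Within the outer coat, summed C1Q per 10000 UMIs was higher in choroid-led than in sclera-led regions. The PAX3 region of NHP1 had 8.69 C1Q UMIs per 10000 (7.22 to 10.4) and held 51.5% of the C1Q UMIs of that section. The ACTA2 region of NHP2 had 9.10 (5.77 to 13.7). Sclera-led regions had 4.02 in NHP1 and 5.08 in NHP2. The sclera-led over choroid-led ratio was 0.462 (0.314 to 0.668) and 0.558 (0.347 to 0.931). Per spot this ratio was 0.189 (0.128 to 0.273) in NHP1 and 0.701 (0.436 to 1.17) in NHP2, where the interval spans 1. For single chains per 10000 UMIs, each NHP2 interval spans 1, and so does that of C1QA in NHP1, at 0.723 (0.401 to 1.27). The sclera-led regions differed among themselves in NHP1, where the CHAD region, led by the cartilage and sclera matrix protein chondroadherin, had 8.78 (5.43 to 13.4), close to the PAX3 region, and the S100A8 region had 2.46 (1.46 to 3.89). Levels per 10000 by region with their intervals are shown in the region plot.

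**Figure D2:**
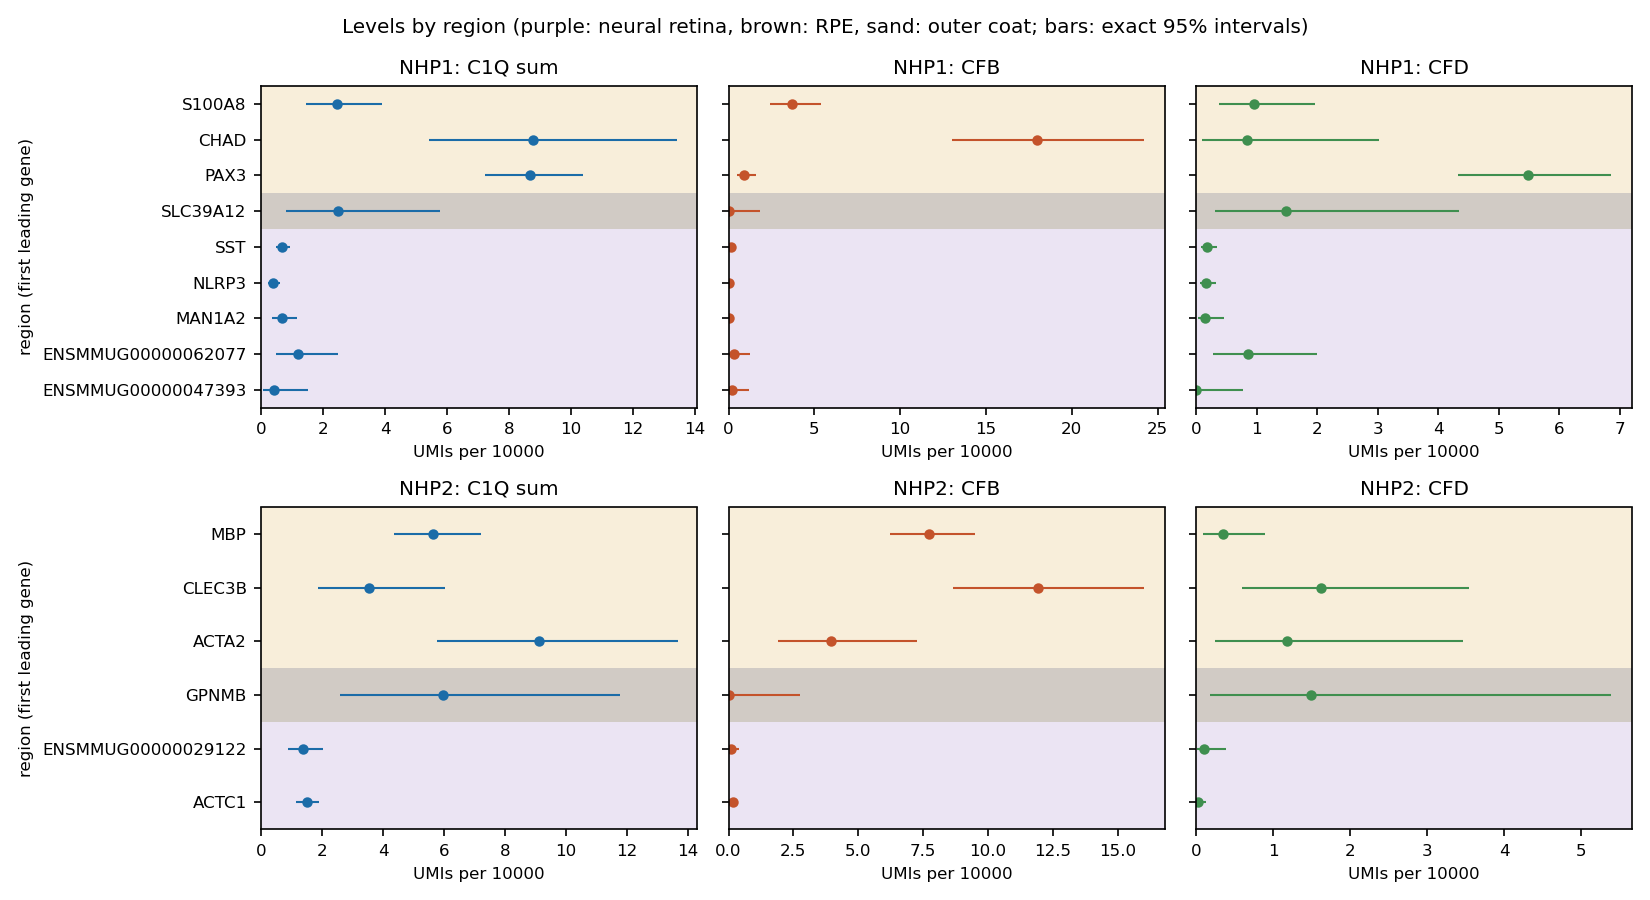
UMIs per 10000 of summed C1Q, CFB and CFD (columns) in each region of at least 5000 UMIs, by animal (rows), with regions named by their first leading gene. Points are levels, bars are exact 95% intervals and shading gives the class, and CFB reached 17.97 in the CHAD region of NHP1 and 11.9 in the CLEC3B region of NHP2 while CFD was at 5.49 in the PAX3 region of NHP1.

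CFB had the highest outer coat over neural retina ratio of the members in both animals. It was at 0.106 UMIs per 10000 (0.0564 to 0.181) in the neural retina of NHP1 and at 3.50 (2.78 to 4.33) in the outer coat, a ratio of 33.0 (18.3 to 64.6). In NHP2 it was at 0.164 (0.0784 to 0.301) and 8.11 (6.84 to 9.54), a ratio of 49.6 (26.2 to 106). The same direction held per spot, at 9.99 in NHP1 and 3.93 in NHP2. No CFB UMI was found in the RPE spots of either animal. With 3 UMIs as the limit that a count of 0 allows, this means up to 1.49 per 10000 in NHP1 and 2.24 in NHP2. These limits lie below the level of the whole outer coat in both animals. In NHP1 the limit lies above the 0.926 of the choroid-led region, so the count of 0 does not set RPE apart from that region. In NHP2 the region called by ENSMMUG00000029122, counted as neural retina although it raised 11 of 12 RPE markers, held 2 CFB UMIs.

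Unlike C1Q, CFB was higher in sclera-led than in choroid-led regions. In NHP1 it was at 7.21 UMIs per 10000 in sclera-led regions and 0.926 in the PAX3 region, a ratio of 7.79 (4.27 to 15.3), and in NHP2 at 8.79 and 3.96, a ratio of 2.22 (1.17 to 4.74). In the CHAD region of NHP1, 27 of 36 spots held CFB, with 43 UMIs and 17.97 per 10000 (13.004 to 24.2). The S100A8 region, the other sclera-led region of NHP1, was at 3.69 (2.43 to 5.37). In NHP2 the CLEC3B region was at 11.9 (8.67 to 16.0) and the MBP region at 7.73 (6.21 to 9.51). The MBP region, led by the myelin gene MBP with FMOD and MYOC, held 89 of the 155 CFB UMIs of that section.

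The authors' score of spatial autocorrelation, Moran's I, gives a further view of placement that uses no regions. It was 0.346 for CFB in NHP1, rank 34 of 13804 genes, and 0.158 in NHP2, rank 98 of 12542. In NHP1 C1QB had 0.0958, C1QA 0.0813, CFD 0.0656 and C1QC 0.0419. In NHP2 these lay between -0.00614 for C1QC and 0.0101 for CFD. The score was computed on the same spots that chose the genes and is not separate evidence.

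CFD was higher in the outer coat as well, but it lay mainly in the choroid-led region of NHP1. It was at 0.196 UMIs per 10000 (0.125 to 0.291) in the neural retina of NHP1 and at 3.62 (2.90 to 4.47) in the outer coat, a ratio of 18.5 (11.7 to 30.5). In NHP2 the neural retina held 3 UMIs and the outer coat 13, or 0.0491 and 0.727 per 10000, a ratio of 14.8 with a wide interval (4.07 to 81.0). Per spot the ratio was 5.61 (3.53 to 9.22) in NHP1 and 1.17 (0.323 to 6.42) in NHP2. The PAX3 region of NHP1 held 68.1% of the CFD UMIs of that section at 5.49 per 10000 (4.33 to 6.86), against 0.927 in the sclera-led regions, a ratio of 0.169 (0.0745 to 0.338). In NHP2 the ACTA2 region held 3 CFD UMIs and the sclera-led regions 10, a ratio per 10000 of 0.548 whose interval (0.141 to 3.1005) spans 1.

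All 5 members were at least 2 times higher in the outer coat than in the neural retina in both animals. Among all genes with at least 10 UMIs in these classes, 1273 of 9205 (13.8%) were so in NHP1 and 1320 of 8070 (16.4%) in NHP2. The median ratio was 13.8 over the members against 0.862 over all genes in NHP1, and 4.59 against 0.772 in NHP2. Nothing is read from this, because the members were chosen on this contrast.

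The CFB and CFD share of member UMIs was higher in the outer coat than in the neural retina of both animals. Of the 446 member UMIs of NHP1, 209 were CFB or CFD (46.9%), and of the 374 of NHP2, 173 were (46.3%). In the neural retina this alternative pathway share was 34.3% (25.4 to 44.0) in NHP1 and 12.7% (6.96 to 20.8) in NHP2. In the outer coat it was 51.2% (45.7 to 56.7) in NHP1 and 61.0% (54.8 to 67.0) in NHP2. C1Q made up 48.8% (43.3 to 54.3) of member UMIs in the outer coat of NHP1, so the intervals of both shares overlapped there. In choroid-led regions the alternative pathway share was 42.5% and 36.1%, and in sclera-led regions 66.9% and 65.0%. The sclera-led share was made up chiefly of CFB in both animals, at 59.3% and 60.5% of member UMIs. The choroid-led regions differed, with CFD at 36.3% of member UMIs in NHP1 and 8.33% in NHP2.

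**Figure D3:**
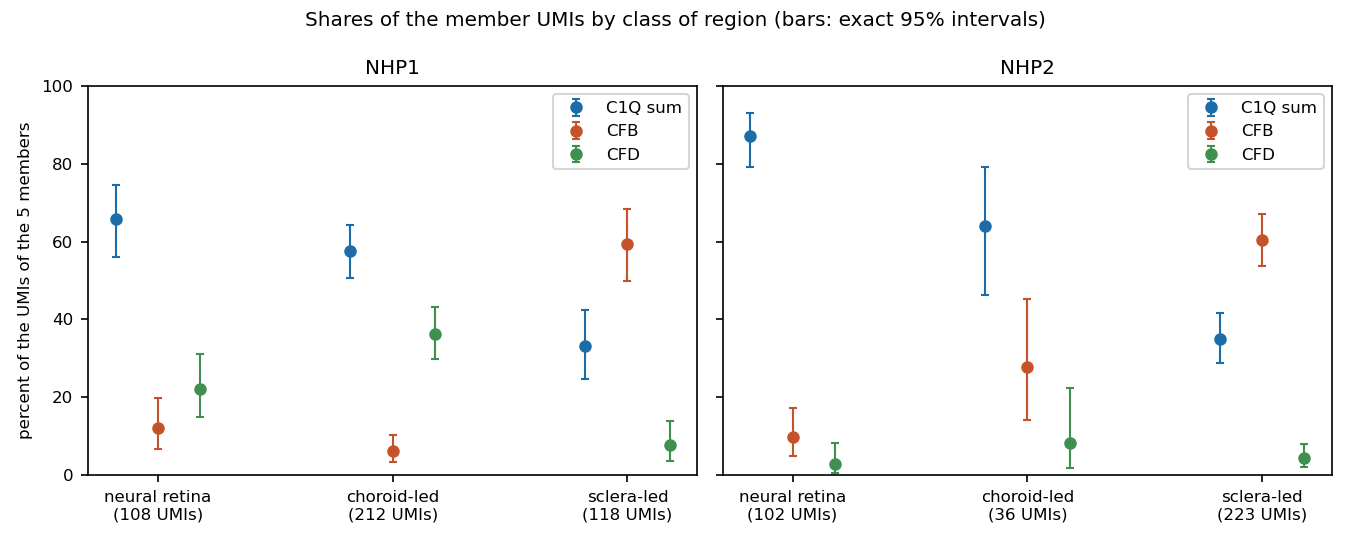
Percent of the UMIs of the 5 members that were C1Q, CFB or CFD in neural retina, choroid-led and sclera-led regions of NHP1 (left) and NHP2 (right), with exact 95% intervals as bars and the number of member UMIs under each class. CFB made up 59.3% and 60.5% of the member UMIs of sclera-led regions.

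Over the whole outer coat, CFB and CFD differed in opposite directions between the animals. CFB was 2.32 times higher in NHP2 than in NHP1 (1.76 to 3.07), and CFD was at 0.201 times the NHP1 level (0.103 to 0.362). CFB UMIs per CFD UMI were accordingly 0.965 (0.705 to 1.32) in NHP1 and 11.2 (6.32 to 21.5) in NHP2. Over the 6357 genes compared in the same way, the median NHP2 over NHP1 ratio was 0.962, 11.5% were at 2 or more and 16.1% at 0.5 or less. The make-up of the outer coat differed too: sclera-led regions gave 40.9% of its UMIs in NHP1 and 85.9% in NHP2. With the NHP1 levels weighted by the region UMIs of NHP2, the NHP2 over NHP1 ratio was 1.28 for CFB, 0.463 for CFD and 1.21 for C1Q, which was 0.833 unweighted. Within classes the CFB ratio was 4.27 (1.68 to 10.5) in choroid-led regions, from 13 and 10 UMIs, and 1.22 (0.906 to 1.65) in sclera-led regions. CFD was also lower in the choroid-led region of NHP2, at 0.216 times (0.0437 to 0.657), and in its neural retina, at 0.251 times (0.0484 to 0.826), whereas the interval for sclera-led regions, 0.702 (0.256 to 1.95), spans 1. With 1 section each, these ratios compare 2 sections and not the animals' treatments.

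By distance from the neural retina, CFB and CFD in NHP1 had orders like those of the regions. The neural retina spots were those of the same region classes, so this is not separate evidence. Distance was counted in spot spacings from the nearest neural retina spot for all other tissue spots. In NHP1 some shallow spots classed as neural retina, such as those of 132 and 141 UMIs, lay among outer coat spots. Outer coat spots near them fell in the bins closest to the neural retina, so these bins mix positions. CFB in NHP1 was at 0.841 UMIs per 10000 (0.384 to 1.596) at 1 spacing, 2.77 at 2, 2.19 at 3 to 4, 12.9 (8.50 to 18.8) at 5 to 8 and 15.7 (9.17 to 25.2) beyond 8. In NHP2 it was at 1.17 (0.241 to 3.42) at 1 spacing and then between 6.80 and 9.64 in the other bins. C1Q in NHP1 was at 4.67 (3.47 to 6.16) at 1 spacing, 6.71 (4.91 to 8.95) at 2 and 8.36 at 3 to 4. It was at 9.55 (5.83 to 14.8) at 5 to 8 and 7.41 (3.20 to 14.6) beyond 8. Per 10000 UMIs it too was lowest at 1 spacing, although it was higher in the choroid-led than in the sclera-led regions. The interval at 1 spacing overlapped those at 2 and beyond 8. Per spot, C1Q in NHP1 was lowest beyond 8, at 0.471 against 0.658 at 1 spacing. In NHP2 C1Q per 10000 UMIs lay between 4.01 and 8.20 and was highest at 1 spacing. CFD in NHP1 was at 4.20 at 1 spacing, 2.48 at 2 and 4.78 at 3 to 4, and then 0.955 and 0.926. The distance lies in the plane of the section and is not depth in the eye wall.

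**Figure D4:**
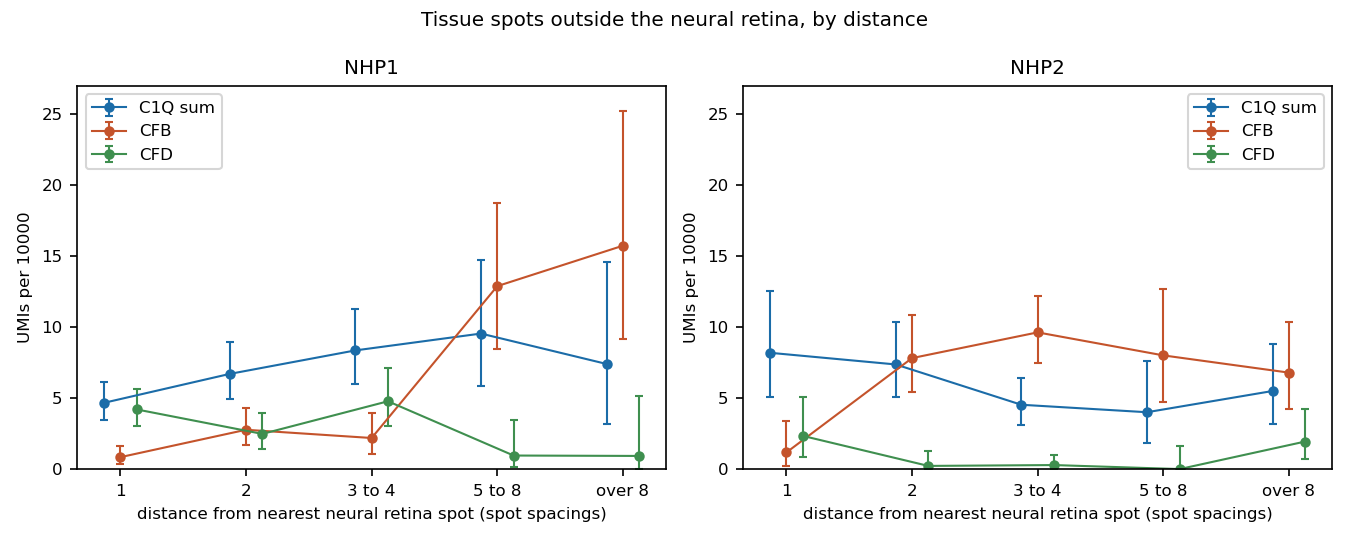
UMIs per 10000 of summed C1Q, CFB and CFD in tissue spots outside the neural retina, by distance from the nearest neural retina spot in spot spacings, for NHP1 (left) and NHP2 (right), with exact 95% intervals as bars. CFB was at 0.841 and 1.17 at 1 spacing in NHP1 and NHP2 and at 15.7 and 6.80 beyond 8.

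Each section held separate pieces of tissue. In NHP1 the piece with 126 outer coat spots had 4.94 CFB UMIs per 10000 there against 1.98 in the piece with 76, with C1Q at 7.33 and 6.20 and CFD at 3.30 and 3.96. In NHP2 the pieces had 7.52 and 8.48 for CFB, 4.87 and 6.14 for C1Q, and 1.33 and 0.361 for CFD. CFB was above C1Q in both NHP2 pieces and below it in both NHP1 pieces.

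C1Q was found in 41.6% of the 202 outer coat spots of NHP1 and in 27.9% of the 251 of NHP2. Of 44 CFD-positive outer coat spots in NHP1, 31 (70.5%) also held C1Q, and these made up 36.9% of the 84 C1Q-positive spots. C1Q and CFB shared 20 spots, 23.8% of the C1Q-positive and 35.1% of the 57 CFB-positive spots. CFB and CFD shared 8 spots, 14.0% of the CFB-positive and 18.2% of the CFD-positive spots. Spots with both C1Q and CFD had a median of 1930 UMIs against 770.5 over all outer coat spots of NHP1, and the part of depth in this overlap was not tested. In NHP2, 7 of the 11 CFD-positive spots held C1Q (63.6%) and 5 held CFB (45.5%). C1Q and CFB shared 35 spots there, of 70 C1Q-positive spots and 82 CFB-positive spots (42.7%).

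Of the 47 other complement genes listed, 43 were found in the reference, and 22 in NHP1 and 19 in NHP2 had at least 10 UMIs in the outer coat and neural retina together. In NHP1, 13 of the 22 were at least 2 times higher in the outer coat, 1 was at 0.5 or less and 8 lay between. In NHP2 the counts were 7, 4 and 8 of 19. The genes of the proteases that C1q activates were higher in the outer coat, with C1R at an outer coat over neural retina ratio of 12.4 (7.999 to 19.7) in NHP1 and 12.96 (8.19 to 21.3) in NHP2, and C1S at 16.1 (9.31 to 29.1) and 23.4 (12.7 to 47.0). SERPING1, which encodes the C1 inhibitor, had more UMIs than C1R or C1S, with 433 and 543 UMIs and ratios of 18.5 (14.7 to 23.5) and 27.1 (20.7 to 36.0).

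Downstream of the members, C3 lay in opposite directions in the 2 animals. It was at 1.05 UMIs per 10000 in the outer coat and 0.293 in the neural retina of NHP1, a ratio of 3.59 (2.07 to 6.15). In NHP2 there was 1 C3 UMI in the outer coat against 31 in the neural retina, a ratio of 0.110 (0.00271 to 0.662). Of the regulators that act on the terminal pathway, CLU was higher in the outer coat, with ratios of 2.82 and 8.72, and VTN was lower, with 0.622 and 0.265. CD59, which blocks the membrane attack complex, had 2.17 and 1.86. Of the receptors and binding proteins, 4 had at least 10 UMIs in these classes of both sections. ITGAX and ITGB2, which encode the chains of complement receptor 4, were higher in the outer coat, at 8.79 and 5.98 and at 5.64 and 5.13. CALR was at 1.11 and 1.61, and C1QBP was lower, at 0.517 and 0.356. ITGAM, the partner of ITGB2 in complement receptor 3, had too few UMIs, 3 in the outer coat and 1 in the neural retina of NHP1 and 1 and 7 in NHP2.

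**Figure D5:**
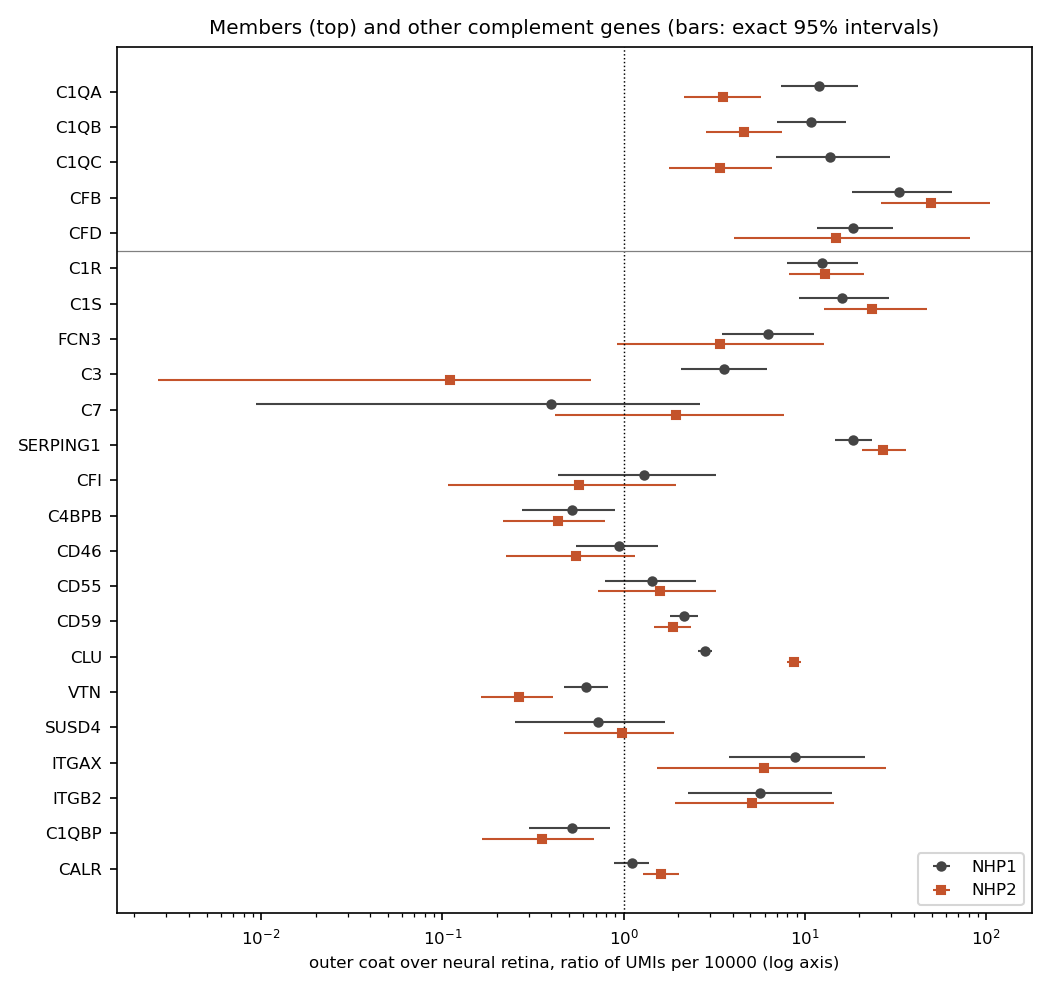
Outer coat over neural retina ratio of UMIs per 10000 on a log axis, for the members and the other complement genes reported here that had at least 10 UMIs in both sections, with a point and an exact 95% interval for each animal. All 5 members lie above 1 in both animals, SERPING1 at 18.5 and 27.1, and C3 at 3.59 and 0.110.

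Markers of other cells differed between the same classes of regions, in part in the order of the members and in part not. The 18 mononuclear phagocyte markers, which include CD68, CD163 and CD74, summed to 2.05 UMIs per 10000 in the neural retina, 24.6 in choroid-led and 7.42 in sclera-led regions of NHP1, and to 3.89, 22.2 and 14.1 in NHP2. CD74 alone gave 15.7 and 2.37 per 10000 in choroid-led and sclera-led regions of NHP1 and 17.02 and 8.92 in NHP2, and the other 17 markers summed to 8.91 (7.41 to 10.6) and 5.05 (3.74 to 6.68) in NHP1 and to 5.15 (2.74 to 8.80) and 5.21 (4.13 to 6.48) in NHP2. In NHP2 the difference between choroid-led and sclera-led regions in this list was thus that of CD74. In the neural retina the other 17 summed to 0.766 and 1.28. Of the 18, 16 had UMIs in the tissue of NHP1 and 15 in that of NHP2, and SPI1 and TMEM119 were at 0 in both. The 7 fibroblast markers summed to 4.42, 92.6 and 145 per 10000 in the same classes of NHP1 and to 3.52, 105 and 136 in NHP2. They reached 318 in the CHAD region, where CFB was highest in NHP1, but in NHP2 they were at 82.9 in the CLEC3B region and 153 in the MBP region, the reverse of the order of CFB. Of 8 adipocyte markers, 6 were at 0 in both sections, and in the outer coat only LPL was found, with 36 UMIs in NHP1 and 5 in NHP2, against 110 and 56 in the neural retina. The 5 T cell markers gave 6 and 4 UMIs in all. Granulocyte and mast cell markers in choroid-led and sclera-led regions summed to 0.570 and 3.09 per 10000 in NHP1 and to 0.792 and 0.0651 in NHP2. Red cell genes summed to 7.34 and 1.55 in NHP1 and to 0.396 and 2.21 in NHP2. The part of these cells in the levels of the members was not tested.

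Of 15 interferon response genes listed, the 12 in the reference had a higher sum in NHP2 than in NHP1, at 65.3 against 7.45 UMIs per 10000 over all tissue spots. In NHP2 they were higher in the neural retina (72.0) than in the choroid-led (55.8) and sclera-led (43.0) regions, whereas in NHP1 the values were 4.73, 22.6 and 19.3. Of the members, CFB and C1Q were higher over all tissue in NHP2, by 2.98 times (2.29 to 3.88) and 1.56 times (1.29 to 1.89), and CFD was at 0.294 times (0.168 to 0.485). Ratios over all tissue also take in the different mix of layers. Within the outer coat the ratios of CFB and C1Q were 2.32 and 0.833 (0.643 to 1.07). Within the neural retina they were 1.54 (0.606 to 3.81) and 2.52. Whether interferon response had a part in these differences was not tested.

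The genes whose level over regions was most like each member were sought by the Pearson correlation of log2(UMIs per 10000 + 1) over the 18 regions of both sections, which share section and depth. CFB was most like C1S (r = 0.976), FBLN1 (0.974), EMP3 (0.971), FN1 (0.942) and CRISPLD2 (0.937), of which C1S, FBLN1 and EMP3 stayed among its 5 with the 15 regions of at least 5000 UMIs. C1S is the protease gene named above, and FBLN1 and FN1 encode extracellular matrix proteins. Summed C1Q was most like CSRP1 (0.945), EDNRB (0.940), CCND1 (0.939), TAGLN2 (0.934) and CD151 (0.917), and none of these 5 stayed with 15 regions. CFD was most like PRDX1 (0.824), RAMP2 (0.821), EGFL7 (0.818), C14H11orf68 (0.811) and CYP27A1 (0.809), of which 2 stayed. Among the members r over 18 regions was 0.162 for C1Q and CFB, 0.387 for C1Q and CFD and 0.190 for CFB and CFD, and over 15 regions 0.633, 0.702 and 0.2495. A region of 8 spots and 504 UMIs, where 3 C1Q UMIs gave 59.5 per 10000, is among those left out.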

How the data were processed

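One Visium section (3′ polyA capture) from each of 2 animals was analysed. The matrices the authors deposited hold UMI counts for each spot, unnormalized, from Space Ranger 2.1.0 (per the file headers) against Mmul_10 with the transgenes added, together with gene tables that hold Moran's I, a deposited score whose settings are not given in the sources used here. The sample description calls the tissue fresh frozen, as the methods do, and the extract protocol names fixation. The deposited counts per gene equalled the sums over tissue spots for all 13804 genes of NHP1 and 12542 of NHP2. The sections shared 67 tissue barcodes, which mark slide positions.

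Tissue spots were kept at any depth (1484784 and 805726 UMIs in all), and levels are UMIs per 10000 summed over spots. Each section was clustered without the listed complement genes (scanpy 1.11.5, leidenalg 0.10.2: log1p of counts per 10000, 2000 variable genes, 20 principal components, 15 neighbours, resolution 1). A region was placed in a class by at least 3 markers with at least 3 UMIs and 1.5 times the level of the rest of the section. Intervals are exact Poisson, Clopper-Pearson or conditional binomial (scipy 1.17.1). UMIs of one section are not independent samples of the animal. Promoter windows came from the RefSeq Mmul_10 annotation and were searched by exact match.

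The members and lists were chosen with earlier results of these data known, and no test was run. The genes named are the members, the listed complement genes and markers, the leading genes of regions, and the 5 genes most correlated with each member among those with at least 100 UMIs. Alternatives changed the depth minimum, clustering, scaling, tissue piece and positive-spot threshold. The injected areas and single-cell data were not analysed here. Some listed complement genes are counted in the totals and not reported here.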

Additional observations from a re-analysis of the deposited data

Results flagged for a closer look

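Some ratios of the members, the other complement genes and the listed markers lay on opposite sides of 1 in the 2 sections, each with an exact 95% interval on its own side, and the difference between the sections was not tested. Summed C1Q per spot was higher in the outer coat than in the neural retina of NHP1, at 3.55 times (2.67 to 4.76), and lower in NHP2, at 0.307 times (0.229 to 0.414). The same was seen for choroid-led regions against neural retina, at 7.24 times per spot in NHP1 (5.36 to 9.84) and 0.409 times in NHP2 (0.247 to 0.652). Per 10000 UMIs, both sections had the higher C1Q level in the outer coat. C3 per 10000 UMIs was higher in the outer coat of NHP1, at 3.59 times (2.07 to 6.15), and lower in that of NHP2, at 0.110 times (0.00271 to 0.662), where the outer coat held 1 C3 UMI. Of the marker lists, LPL was at 1.69 times (1.13 to 2.49) in the outer coat of NHP1 and 0.305 times (0.0954 to 0.756) in that of NHP2. The interferon response genes with this pattern, higher in the outer coat of NHP1 and lower in that of NHP2, were ISG15 (3.94 and 0.226 times), IFIT3 (3.65 and 0.304), MX1 (7.24 and 0.446), OAS3 (4.02 and 0.448) and PSMB9 (3.45 and 0.365).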

How the results depend on the processing

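Of 141 alternative values, 96 stayed within the counting interval of the reported value, 43 moved further and 2 reversed. Only a ratio that changed its side of 1 was counted as reversed, so a share could not be. C1Q in NHP2 reversed in UMIs per spot, with an outer coat over neural retina ratio of 3.88 per 10000 UMIs and 0.307 per spot. The NHP2 over NHP1 ratio of C1Q in the outer coat went from 0.833 to 1.21 with the NHP1 levels weighted by the region UMIs of NHP2, a setting added after seeing the data, under which CFB was at 1.28 and CFD at 0.463. Per spot the other ratios were 3.55 for C1Q, 9.99 for CFB and 5.61 for CFD in NHP1 and 3.93 for CFB and 1.17 for CFD in NHP2, and the sclera-led over choroid-led ratios of NHP1, added after seeing the data, were 0.189, 3.18 and 0.0690 for C1Q, CFB and CFD. In the largest tissue piece alone the outer coat over neural retina ratios of C1Q, CFB and CFD were 7.93, 128 and 10.7 in NHP1. The ratio of 128 rests on 1 CFB UMI in the neural retina (22.2 to 5154). In NHP2 the ratios were 8.49 (1.42 to 346), 13.1 (2.25 to 529) and 2.32 (0.321 to 102), where that piece held 6 neural retina spots. Levels over the largest piece were 2.90, 1.55 and 1.27 UMIs per 10000 in NHP1 and 4.65, 5.50 and 1.27 in NHP2. The CFB and CFD share in NHP2 was 59.3% over the piece. It was 66.7% (9.43 to 99.2) in the neural retina of the piece and 64.5% (53.9 to 74.2) in its outer coat. The neural retina share was thus not the lower one there, with an interval too wide to order the layers. With at least 2 UMIs to call a spot positive, the shares of C1Q, CFB and CFD spots were 9.93%, 3.75% and 4.12% in NHP1 and 9.36%, 7.02% and 0.213% in NHP2. With each spot thinned to 200 UMIs they were 5.11%, 5.70% and 3.34% in NHP1 and 8.17%, 9.48% and 1.63% in NHP2. This left out 25 and 164 shallower spots. The C1Q and CFB intervals then overlapped in NHP1, at 3.36 to 7.40% and 3.85 to 8.08%. They also overlapped in NHP2, at 5.36 to 11.8% and 6.44 to 13.3%. Among spots of at least 200 UMIs, unthinned, C1Q and CFB were in 35.9% and 29.7% of spots of NHP2. Scaled to the UMIs that remain once mitochondrial genes and the 50 genes with the most UMIs are dropped, levels were 1.96, 0.796 and 0.937 for C1Q, CFB and CFD in NHP1 and 2.998 and 2.31 for C1Q and CFB in NHP2. The cause of these moves was not tested. Other clusterings, marker-based classes without clustering and leaving out the spot richest in a gene changed no direction. No paired analysis was possible because each group held 1 section and no test was run, and for the same reason no replicate could be left out. Depth limits CFD in NHP2, with 18 UMIs, and all members in RPE.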
